A study of Mus musculus with 8 samples.

Results

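The Gm12695 locus on mouse chromosome 4 was read by 4 array probes, out of 55681 non-control probes on the array. They are the probes whose start, in the mm9 coordinates of the array files, lies from 189 kb before to 211 kb after the start of A_55_P2128060. They belong to Cyp2j9, to Cyp2j5, to a transcript that the files describe as unknown and name only by its probe, A_55_P2128060, and to Gm12695. A_55_P2128060 and the Gm12695 probe were chosen by their signal and detection marks in R6/2 against WT in these same 8 arrays, so their values are given below as a description with no test. The Cyp2j9 and Cyp2j5 probes and the probes on both sides of the window were taken by position alone.

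RNA came from medium spiny neurons, or MSNs, the GABAergic output neurons of the striatum, sorted from male mice aged 4 weeks. The R6/2;Scn4b-Venus group has 4 arrays, from mice that carry the R6/2 transgene and the Scn4b-Venus reporter. The WT;Scn4b-Venus group, called WT here, also has 4 arrays, from mice that carry the reporter without the R6/2 transgene. Both groups therefore share the Venus fluorescent protein under Scn4b, the gene of a sodium channel subunit, and cells were sorted as positive for Venus and negative for the dead-cell dye propidium iodide. Each array was hybridised with 1 dye (Cy3). The labels do not say whether replicates came from separate mice, so the spread between arrays may be partly technical.

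R6/2 is a mouse model of Huntington's disease whose transgene holds exon 1 of the human huntingtin gene with an expanded CAG repeat. As background known from mapping work and not read from these arrays, the transgene of this line sits on mouse chromosome 4 within Gm12695. The transgene and the altered locus are inherited together, so an action of the mutant huntingtin fragment and a local change at the insertion cannot be told apart in a comparison of R6/2 with WT. The Cyp2j genes beside the locus encode cytochrome P450 enzymes that turn arachidonic acid into epoxides.

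The 4 probes of the window are shown in genome order, since they are the exact stretches of RNA that the results rest on. Each is 60 bases long, written from its 5′ end in lower case as in the array files, and AATAAA, the letters of the common polyadenylation signal, is in capitals where it occurs.
Cyp2j9 (chr4:96235281-96235340, mm9, minus strand): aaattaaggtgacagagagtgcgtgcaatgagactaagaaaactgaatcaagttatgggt
Cyp2j5 (chr4:96294172-96294231, mm9, minus strand): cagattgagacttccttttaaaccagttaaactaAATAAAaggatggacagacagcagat
A_55_P2128060 (chr4:96388645-96388704, mm9, plus strand): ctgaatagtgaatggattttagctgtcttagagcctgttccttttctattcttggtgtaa
Gm12695 (chr4:96390578-96390637, mm9, minus strand): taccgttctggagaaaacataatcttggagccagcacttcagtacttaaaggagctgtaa

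A_55_P2128060 and the Gm12695 probe lie 1873 bases apart and on opposite strands, and the authors' deposited table gives the same strands. They share no run longer than 6 bases in either orientation. No other probe on the array shares a run of 16 bases with any of the 4, in either orientation (0 probes). Their GC content is 36.7% for A_55_P2128060 and 41.7% for Gm12695, with 38.3% for Cyp2j9 and 35% for Cyp2j5. The median over all 55681 probes is 43.3%, and the lowest and highest 5% of probes lie below 35% and above 55%. AATAAA was searched as written and as its reverse complement. It occurs in the Cyp2j5 probe, and in 13.5% of all probes on either strand. Whether A_55_P2128060 falls in an exon or an intron was not analysed here, and no gene is assigned to it.

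The A_55_P2128060 probe starts 94413 bases beyond the end of the Cyp2j5 probe. Beyond the Gm12695 probe, the next probe on the array starts after a gap of 458893 bases. In the RefSeq gene order of the assembly GRCm38.p6, Gm12695 lies between Cyp2j5 and Gm34053, a long noncoding RNA gene that no probe on the array is named for. The promoter of Gm12695 is shown because transcription of that gene starts there. It is RefSeq's 300-base window of GRCm38.p6, a later build than that of the probes, on the minus strand, and capitals mark the matches to GGGCGG, a GC box, and to CCAAT, both read as their reverse complements.
Gm12695 promoter (chr4:96786701-96787000, GRCm38.p6, minus strand): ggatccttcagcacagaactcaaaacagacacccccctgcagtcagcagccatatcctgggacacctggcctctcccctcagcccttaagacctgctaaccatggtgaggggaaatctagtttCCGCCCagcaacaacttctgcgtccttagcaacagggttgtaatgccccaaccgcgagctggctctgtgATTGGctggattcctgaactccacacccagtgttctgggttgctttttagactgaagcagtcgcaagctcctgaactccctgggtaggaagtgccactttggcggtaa

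The promoter window has a GC content of 54.7% and 6 CG dinucleotides. The medians over 32851 promoters of the same table are 52.7% and 7. All motifs were searched on both strands. GGGCGG matched once, on the other strand at base 124, and 35.7% of all promoters hold it. CCAAT matched once, on the other strand at base 193, and 37.4% of all promoters hold it. TATAAA had 0 matches, and 13.6% of all promoters hold it.

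The arrays differed in how much they detected. The share of probes marked well above background by the scanner software was 74.0%, 75.9%, 75.4% and 78.8% in R6/2 replicates 1 to 4, against 50.1%, 76.2%, 67.8% and 72.2% in WT replicates 1 to 4. The means were 76.0% ± 2.01 in R6/2 and 66.6% ± 11.5 in WT (SD, n = 4 each, two-sided exact permutation p = 0.114). WT replicate 1 stood apart, with a lowest intensity called well above background of 51.3, where the other 3 WT arrays had 11.8, 17.5 and 13.3 and the R6/2 arrays had 10.6 to 16.1. R6/2 replicate 4 was alone on its slide and in its scan, so the values without it are also the values within the other slide. The 12 MSN markers were well above background on all 8 arrays. Their mean log2 level was 5.01 to 5.26 in R6/2 and 5.59 to 5.90 in WT, a difference of -0.63 (two-sided exact permutation p = 0.0286, the smallest that 70 assignments allow). In sorted bulk RNA, fewer cells of a type and less RNA per cell cannot be told apart.

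A_55_P2128060 gave a strong signal in every R6/2 array and none that the scanner software called well above background in WT. Its background-subtracted intensity was 432, 344, 407 and 509 in R6/2 replicates 1 to 4, against 13.1, 2.35, 4.12 and 3.01 in WT replicates 1 to 4. All 4 R6/2 arrays were high, all 4 WT arrays were low, and the groups did not overlap. Each WT value is one that the scanner software substitutes for a spot too dim to measure, so the order among the WT arrays carries no information.

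On the log2 scale, relative to the 75th percentile of each array, the level of A_55_P2128060 was 0.46, -0.09, 0.14 and 0.41 in R6/2 replicates 1 to 4 and -4.75, -7.19, -6.34 and -6.82 in WT replicates 1 to 4. The means were 0.23 ± 0.26 in R6/2 and -6.28 ± 1.07 in WT (SD, n = 4 each), a log2 difference of 6.51. Since no WT array measured the probe, the fold is an approximate bound. The mean R6/2 level was 20.8-fold above the mean of the 4 WT detection limits, taken on the log2 scale. Each limit is the lowest intensity marked well above background on that array, or the probe's own value where that is higher. The limits were -2.78, -4.86, -4.25 and -4.68 in WT replicates 1 to 4, so the fold differs by array. A brighter spot can still lack the mark: a flanking probe at 56.4 did on WT replicate 1, with a limit of 51.3. Without WT replicate 1, the array with the highest limit, the bound was 28.4-fold.

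The raw spots show the same contrast before any background subtraction. The mean spot intensity of A_55_P2128060 was 421, 367, 410 and 552 in R6/2 replicates 1 to 4, against 53.8, 39.7, 48.0 and 42.6 in WT. As a ratio to the local background, the spots reached 14.0, 12.7, 14.6 and 19.7 in R6/2, against 1.63, 1.47, 1.60 and 1.55 in WT. Even the weakest R6/2 spot was far above its surroundings, while the WT spots lay little above theirs.

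The Gm12695 probe was also brighter in every R6/2 array, by less and with more spread than A_55_P2128060. Its background-subtracted intensity was 176, 56.4, 128 and 131 in R6/2 replicates 1 to 4, against 13.7, 11.9, 6.06 and 10.1 in WT replicates 1 to 4. R6/2 replicate 2 was the lowest R6/2 array and still exceeded every WT array. The probe was well above background on 4 R6/2 arrays and on 1 WT array, replicate 2, whose intensity of 11.9 was just over that array's limit of 11.8. Unlike A_55_P2128060, it was marked positive and significant, the software's weaker call, on all 4 WT arrays.

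The log2 level of Gm12695 was -0.84, -2.70, -1.52 and -1.54 in R6/2 replicates 1 to 4 and -4.69, -4.85, -5.78 and -5.07 in WT replicates 1 to 4. The means were -1.65 ± 0.77 in R6/2 and -5.10 ± 0.48 in WT (SD, n = 4 each). The log2 difference was 3.45, a 10.9-fold higher mean in R6/2, which rests on WT values near or under the detection limit. The mean ratio of spot to local background was 2.83-fold higher in R6/2. The range over the R6/2 arrays was 1.86 for Gm12695 and 0.55 for A_55_P2128060, both on the log2 scale. As a ratio to the local background, the Gm12695 spots were at 7.75, 3.50, 6.56 and 5.98 in R6/2, against 2.77, 1.92, 1.83 and 1.88 in WT. WT replicate 1, with the highest detection limit, had the highest WT ratio.

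**Figure D1:**
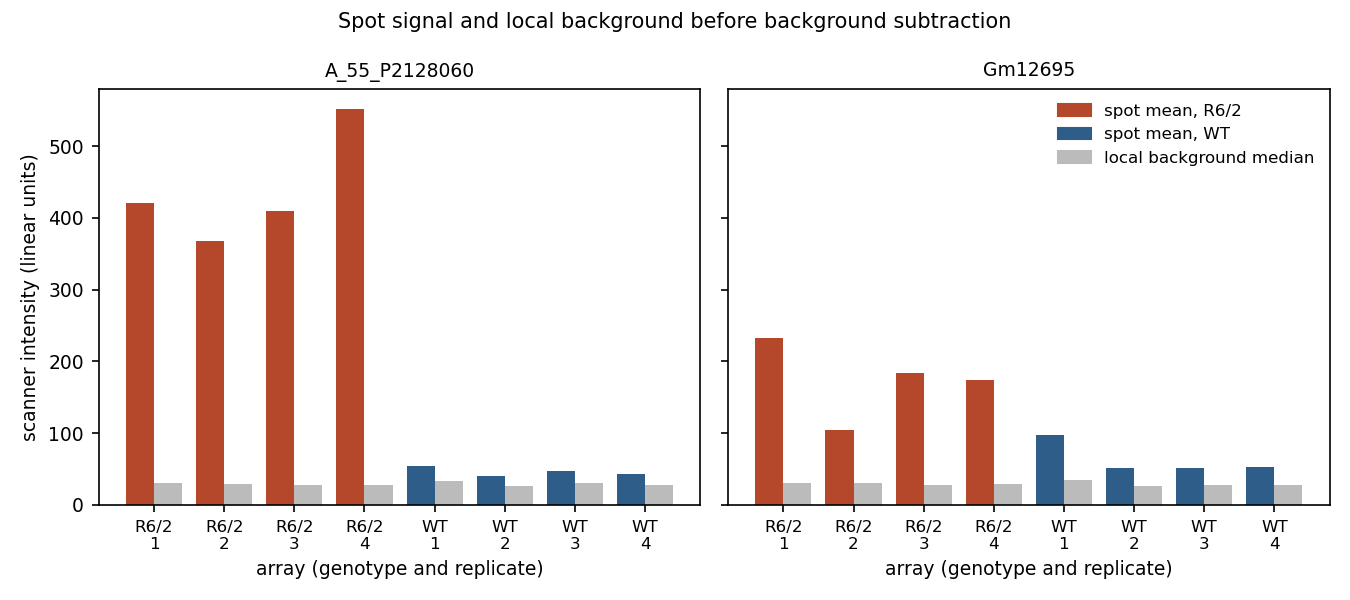
Mean spot intensity (red for R6/2, blue for WT) and median local background (grey) of A_55_P2128060 and the Gm12695 probe on each array, in linear scanner units before background subtraction. A_55_P2128060 reached 367 to 552 in R6/2 and 39.7 to 53.8 in WT, and Gm12695 reached 105 to 233 in R6/2 and 51.1 to 96.9 in WT.

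Among the 41378 tested probes, a pattern of 4 R6/2 arrays and 0 WT arrays well above background, that of A_55_P2128060, was found in 121 tested probes (0.292%). A pattern of 4 R6/2 arrays and at most 1 WT array, which Gm12695 meets, was found in 777 (1.88%). Groups that did not overlap were found in 1893 tested probes (4.57%). limma with Benjamini-Hochberg adjustment over all tested probes called 1 of them (0.00242%), and 2904 (7.02%) had an unadjusted p under 0.05. The called probe is A_55_P2128060 itself, which met the filter for testing through its 4 R6/2 arrays alone. Since these are the values that singled out the pair, nothing is read from them.

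Both probes differed in the same direction under each of these processings. Normexp background correction was run with an offset of 50 added to every spot, which shrinks the log2 differences of dim probes most. With it, the log2 difference was 2.82 for A_55_P2128060 and 1.21 for Gm12695. Under quantile normalization between arrays it was 6.12 for A_55_P2128060 and 3.08 for Gm12695. The groups stayed separate in each of these. The authors' deposited table gives an absolute fold of 90.9 up for A_55_P2128060 and 10.9 up for Gm12695, without regard to the detection limit. Within the slide that held the other 7 arrays, thus without R6/2 replicate 4, the difference was 6.45 for A_55_P2128060 and 3.41 for Gm12695. Without WT replicate 1 it was 7.01 for A_55_P2128060 and 3.58 for Gm12695.

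The Cyp2j neighbours in the same window had R6/2 and WT values that overlapped. Cyp2j5 had an intensity of 43.1, 38.7, 49.1 and 55.7 in R6/2 replicates 1 to 4, against 22.4, 34.0, 45.1 and 24.1 in WT. Cyp2j9 had 26.4, 23.8, 25.0 and 39.1 in R6/2 replicates 1 to 4, against 24.8, 64.9, 28.0 and 32.1 in WT. R6/2 lay in the upper part of the range for Cyp2j5, and WT replicate 2 was the highest array for Cyp2j9.

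The mean log2 level of Cyp2j5 was -2.95 ± 0.20 in R6/2 and -3.50 ± 0.49 in WT (SD, n = 4 each), a difference of 0.55 (SE 0.28, limma adjusted p = 0.740). That of Cyp2j9 was -3.67 ± 0.30 in R6/2 and -3.30 ± 0.63 in WT (SD, n = 4 each), a difference of -0.37 (SE 0.34, limma adjusted p = 0.849). Neither difference passed the test (0 of 2), which holds little information where 0.00242% of all tested probes were called. Both Cyp2j probes were well above background on 4 R6/2 arrays and 3 WT arrays. WT replicate 1 was the exception for both, with intensities of 22.4 and 24.8 under its own limit of 51.3. On the other 7 arrays both were marked, so a permutation test of this mark could not tell the genotypes apart. Without WT replicate 1, the difference was 0.40 for Cyp2j5 and -0.55 for Cyp2j9. Without WT replicate 2, the highest array for Cyp2j9, the Cyp2j9 difference was -0.07, and with normexp that of Cyp2j5 was 0.13 and that of Cyp2j9 was -0.22.

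**Figure D2:**
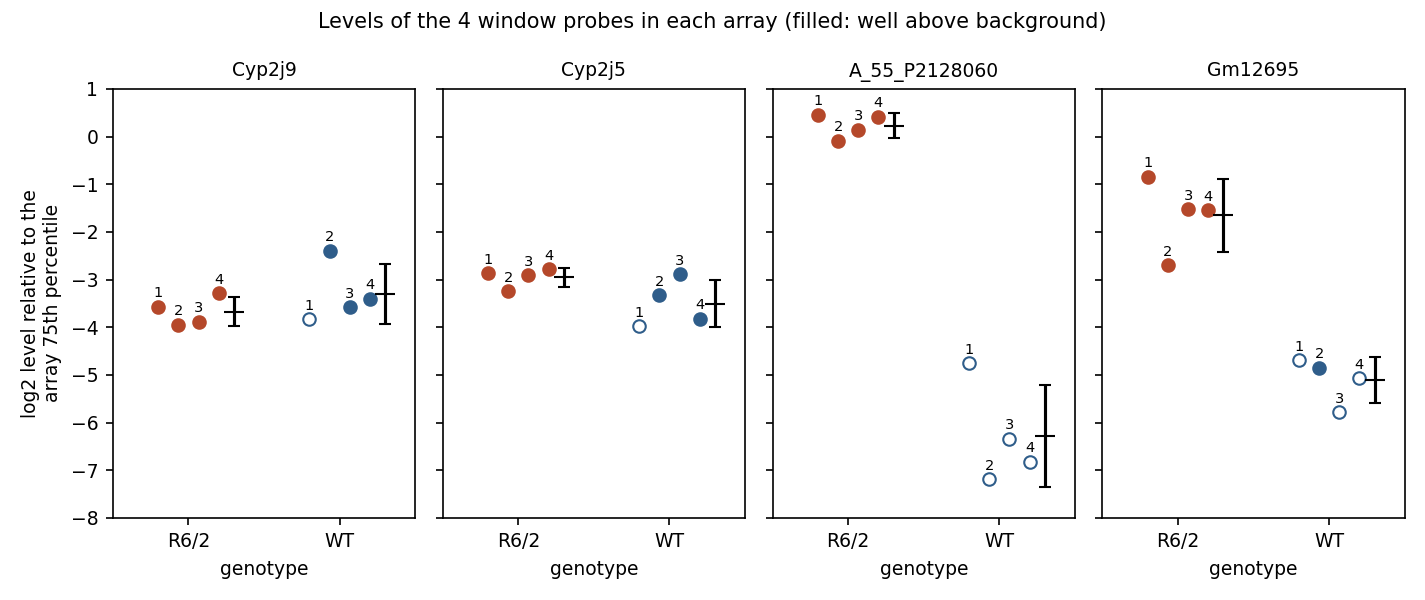
Log2 level of the 4 window probes on each array, relative to the 75th percentile of the array, with R6/2 left of WT, replicate numbers above the points, filled points for arrays well above background, and bars for mean and SD (n = 4). The R6/2 and WT points are apart for A_55_P2128060, by 4.66 at the nearest, and for Gm12695, by 1.99, and mixed for Cyp2j9 and Cyp2j5.

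At the edges of the window, the nearest probe before it is one of Cyp2j6, which was not tested because it was well above background on only 2 R6/2 arrays and 1 WT array. Its log2 level was -4.43 ± 1.33 in R6/2 and -4.64 ± 1.40 in WT (SD, n = 4 each). The first probe inside was that of Cyp2j9 and the last inside was that of Gm12695, with the values above. The nearest probe after the window, of the transcript ENSMUST00000086672, was at -3.46 ± 0.47 in R6/2 and -3.86 ± 0.81 in WT (SD, n = 4 each), a difference of 0.39 (SE 0.43, limma adjusted p = 0.881). That difference was 0.014 without WT replicate 1, where the value was a surrogate, and 0.010 with normexp.

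The surrounding 2 Mb on each side hold 65 probes, of which 46 were tested. None of the 46 passed limma's test in either direction (0 higher and 0 lower, against 0.00242% of all tested probes). The only probe called over the array was A_55_P2128060, so this count of 0 holds little information. At an unadjusted p under 0.05, 2 were higher and 1 was lower in R6/2, against 7.02% of all tested probes. Their log2 differences ran from -0.78 to 1.31, with 29 above 0 and 17 below. The median was 0.15, and over all tested probes it was 0.05, with 22965 above 0 and 18413 below. With normexp the flanking median was -0.03 and that over all tested probes was -0.01. The direction of both rests on the background correction. The highest flanking difference with the processed intensity, 1.31, was below the 3.45 of Gm12695. Since Gm12695 was chosen on this contrast, nothing is read from that order.

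Before the window, 30 probes were tested and the median difference was 0.04, with 16 above 0 and 14 below. After it, 16 were tested and the median was 0.30, with 13 above 0 and 3 below. The median SE of these 16 probes was 0.45, larger than their median difference. Within 1 Mb, 17 probes were tested and the median was 0.17, with 13 above 0 and 4 below. Of the flanking probes, 1 had groups that did not overlap, against 4.57% of all tested probes. It is a long intergenic RNA probe, A_30_P01032942, with a log2 difference of 0.34 (SE 0.19, limma adjusted p = 0.767).

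**Figure D3:**
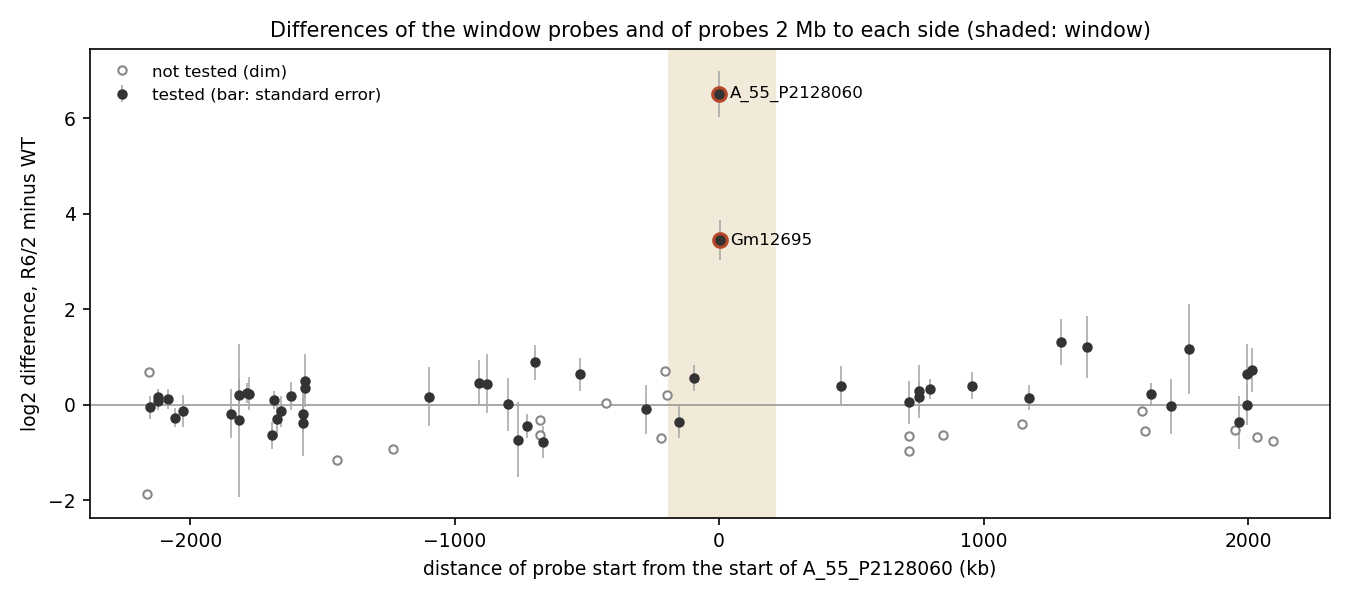
Log2 difference, R6/2 minus WT, of the window probes and the probes within 2 Mb on each side, against the distance of the probe's start from that of A_55_P2128060 in kb, with filled points for tested probes (bars are limma's standard error), open points for dim probes not tested, and the window shaded. A_55_P2128060 is drawn at 6.51, with WT at surrogate values, and Gm12695 at 3.45, and the tested flanking differences run from -0.78 to 1.31.

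Among tested flanking probes, the highest differences with the processed intensity were those of Nfia, the gene of the transcription factor nuclear factor I/A, which lies after Gm12695. Its probe A_66_P115098 had an intensity of 21.3, 12.0, 28.8 and 58.9 in R6/2 replicates 1 to 4, against 10.9, 17.4, 6.82 and 7.48 in WT. R6/2 replicate 4 was the highest and the groups overlapped through R6/2 replicate 2. The log2 difference was 1.31 (SE 0.49, limma adjusted p = 0.675), and 0.94 without R6/2 replicate 4. It was well above background on 3 R6/2 arrays and 1 WT array, and with normexp the difference was 0.24. The other Nfia probe, A_55_P2194958, had a log2 difference of 1.21 (SE 0.64, limma adjusted p = 0.749), 0.69 without R6/2 replicate 4 and 0.34 with normexp. With normexp both were below Hook1 probe A_52_P535623, at 0.60, a brighter probe that the added offset of 50 shrinks less. The WT replicate 1 value of both Nfia probes was a surrogate. Neither Nfia probe passed the test.

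Hook1, which encodes an adaptor linked to microtubules, had 2 tested probes that differed in sign. Probe A_52_P535623 had an intensity of 100.1, 229.5, 188 and 229.2 in R6/2 replicates 1 to 4, against 89.9, 77.6, 166 and 62.01 in WT, with groups that overlapped. Its log2 difference was 0.89 (SE 0.36, limma adjusted p = 0.692). Probe A_52_P13897 had a log2 difference of -0.46 (SE 0.25, limma adjusted p = 0.757), and -0.25 without R6/2 replicate 1. Fggy, with 4 probes before the window, had differences above 0 in all 4 and a median of 0.30, below their median SE of 0.58. None of the 4 passed, and 22965 of all 41378 tested probes were above 0.

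Of 11 Cyp2j probes in the window and its flanks, 5 were tested, with 2 above 0, 3 below and a median of -0.10. Of these 5, 0 passed limma's test, which holds little information where 0.00242% of all tested probes were called. Beside the window pair, Cyp2j13 was at -0.78 (SE 0.33, limma adjusted p = 0.704) and Cyp2j7 at 0.63 (SE 0.34, limma adjusted p = 0.753). With normexp these were -0.24 for Cyp2j13 and 0.18 for Cyp2j7, and Cyp2j7 was at 0.38 without R6/2 replicate 4. Cyp2j8, the nearest tested probe before the window, was at -0.10 (SE 0.52, limma adjusted p = 0.980), and its sign turned without R6/2 replicate 4, to 0.31. The transcript ENSMUST00000145411 was at -0.64 (SE 0.28, limma adjusted p = 0.708), and at -0.39 with normexp. The Cyp2j genes are close relatives, and binding of related transcripts to these probes was not tested.

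The array's Htt probe reads the mouse gene and does not check the human transgene. Its log2 level was 1.20 ± 0.35 in R6/2 and 0.93 ± 0.34 in WT (SD, n = 4 each), a difference of 0.27 (SE 0.26, limma adjusted p = 0.865). Scn4b, whose reporter was used for the sort, was at 5.12 ± 0.43 in R6/2 and 6.27 ± 0.38 in WT (SD, n = 4 each), a difference of -1.15 (SE 0.29, limma adjusted p = 0.552). Its groups did not overlap, as in 4.57% of all tested probes. Scn4b is also among the 12 MSN markers, so the 2 results are not independent. The 8 marker lists of other cell types differed by -1.06 (oligodendrocyte, 4 genes) to 0.34 (endothelial, 3 genes) in mean log2 level, with exact permutation p from 0.229 to 0.886. Of these lists, Neurod6 (cortical neuron) and Tmem212 (ciliated ependymal) were well above background on 0 arrays. The part of these differences in the signal of A_55_P2128060 and Gm12695 was not tested. Both are higher in R6/2 and the MSN markers are lower, and these directions do not show which cells gave the signal.

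Across the 8 arrays, the log2 levels of A_55_P2128060 and Gm12695 had a Pearson r of 0.952, as a description of probes that are both separated by genotype. By log2 level in R6/2, replicate 1 was the highest and replicate 2 the lowest array for both. By intensity, A_55_P2128060 was highest in R6/2 replicate 4, at 509 against 432 in replicate 1. Of the tested probes with a gene symbol, the 6 most like A_55_P2128060 were those of Gm5796 (r = 0.986), Bpnt1 (0.976), 4930555G01Rik (0.976), Gm3727 (0.973), Gm10406 (0.972) and Atp6ap1 (0.970). Bpnt1 encodes a nucleotide phosphatase and Atp6ap1 an accessory subunit of the vacuolar proton pump. Of these 6 probes, 4 lie on chromosome 14 and none on chromosome 4. Whether those 4 probes bind related transcripts was not tested. For the 5 that were well above background on all 8 arrays, the log2 differences ran from 0.59 for Atp6ap1 to 1.67 for Gm10406. 4930555G01Rik was well above background on 4 R6/2 arrays and 0 WT arrays, as A_55_P2128060 was, so the sizes of their differences are not compared.

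The 6 most like Gm12695 were H4c4 (r = 0.982), a histone H4 gene, Gm10471 (0.969), Pcsk1 (0.963), a prohormone convertase, Dhx40 (0.963), Rnf130 (0.959) and Rpl35a (0.958), a ribosomal protein gene. For the 4 that were well above background on all 8 arrays, the log2 differences ran from 0.29 for Rpl35a to 0.75 for Rnf130. Gm10471 and Pcsk1 were well above background on 4 R6/2 arrays and 0 WT arrays, so no order between them and Gm12695 is given. None of the 12 was among the flanking probes. Likeness was measured over 8 arrays in which both of the pair split by genotype, so a high r is shared by any probe with the same split.

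**Figure D4:**
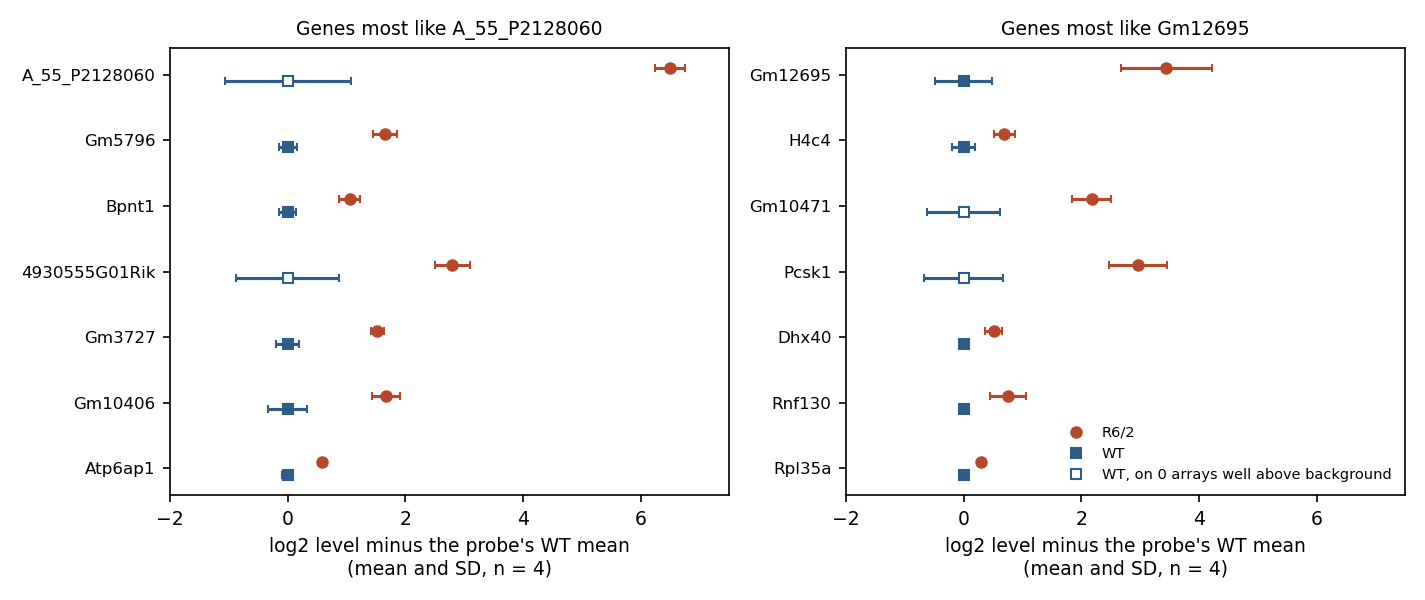
Log2 level relative to each probe's own WT mean, as mean and SD over 4 arrays, for A_55_P2128060 and its 6 most alike genes and for Gm12695 and its 6 most alike genes, with R6/2 in red above WT in blue and open squares for probes on 0 WT arrays well above background. The genes were picked for likeness over the same 8 arrays, so their higher R6/2 levels follow from the choice, and distances from an open square have no WT level well above background behind them.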

How the data were processed

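The array files hold spot intensity values that, per the file headers, Agilent Feature Extraction 10.7.3.1 made with spatial detrending and surrogate values for dim spots. Per the file headers, coordinates follow mm9. The authors' deposited table gives log2 values relative to the 75th percentile of each array, which were used as an alternative, and an absolute fold, a linear ratio. There were 0 columns of other samples.

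The log2 of the processed intensity was taken, outlier spots were dropped, repeat spots were averaged, and each array's 75th percentile over non-control probes was subtracted. The 41378 of 55681 probes well above background on at least 4 arrays were tested. In 1 R6/2 file (replicate 3), 1 garbled line, in which the entries of 2 spots run together, was left out (62974 of 62976 spots read). R6/2 minus WT was fitted with limma 3.58.1 on R 4.3.3 (two-sided, Benjamini-Hochberg over all tested probes, threshold 0.05), and checked on simulated data. Single values were compared by exact permutation. With 4 arrays a group, the number of arrays limits the precision.

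Named probes are all in the window, the 8 flanking probes with the smallest limma p, the nearest tested probe on each side, the 6 most like each of the pair, Htt and Scn4b. Cyp2j6, whose probe is the nearest before the window, and Fggy were described outside this rule. Marker lists were MSN, astrocyte, oligodendrocyte, microglia, endothelial, interneuron, cortical glutamatergic neuron, male germ cell and ciliated ependymal. Members, lists and tests were chosen with earlier results of these data known. Alternatives were normexp (offset 50), quantile normalization, the authors' values, other filters, 1 probe per gene, a replicate block, a plain unpaired test, flanks of 1 Mb, a weaker detection mark and leaving out each array. The detection bound without WT replicate 1 was added after seeing the data.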

Additional observations from a re-analysis of the deposited data

How the results depend on the processing

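A_55_P2128060 and Gm12695 kept their direction under every alternative run that kept them. Restricting to probes well above background on all 8 arrays removes both. With normexp and its offset of 50 added to every spot, the log2 difference was 2.82 for A_55_P2128060 and 1.21 for Gm12695. The parts of normexp and of the offset in this were not tested. Leaving out each array in turn gave 6.20 to 7.01 for A_55_P2128060 and 3.18 to 3.80 for Gm12695. The count of probes limma called over the array was 1, and it was 8 with normexp, 2 with quantile normalization, 7 with the 8-array filter (26626 probes tested) and 0 with the plain unpaired test, which had 2795 at an unadjusted p under 0.05. It was 0 to 3 when each array was left out, with 3 without WT replicate 1 and 0 without any other array. The replicate numbers did not pair the arrays (same-number correlations of -0.04 to 0.02). With the replicate number as a block, 0 probes were called, and only replicate 1 correlated best with its own number. Calls among the flanks were 0 in every fit. Those among the Cyp2j9 and Cyp2j5 probes were 0 in every fit that kept them, and the 8-array filter removes both. Where a fit called 0 probes over the array, these counts were fixed. The Cyp2j8 difference (A_55_P2080248) turned to 0.093 with quantile normalization, 0.18 without WT replicate 2 and 0.31 without R6/2 replicate 4 (range -0.48 to 0.31); the cause was not tested. Counting Cyp2j8, 196 of 199 differences of named probes other than the pair kept their direction and side of the threshold. The 3 that turned were those of Cyp2j8. Of 36 likeness values under other processings, 7 moved by 0.05 or more and 29 did not. The largest falls were with normexp, from 0.958 to 0.685 for Rpl35a and from 0.976 to 0.767 for 4930555G01Rik. Signal over background limits the WT levels: A_55_P2128060 had surrogate values on all 4 WT arrays, and Gm12695 was measured on all 4 but well above background on 1.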
